A study of Mus musculus with 9 samples.

Results

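Gene levels were described in the 4 libraries labelled control, out of 9 libraries of lumbar dorsal root ganglia in the series. All 4 carry a control title and a wild type genotype, and the other 5, labelled icKO for an inducible conditional knock-out of Prdm12, were not analysed here. The ganglia came from adult C57Bl6 mice, and the design places collection 1 month after tamoxifen. Whether the control mice received tamoxifen or carry a Cre or floxed allele, whether a library pools animals, and the sex of the mice are points on which the labels are silent. The labels do not state that the libraries came from separate animals, so the spread between them may be partly technical. Every value given with ± is a mean and SD over these libraries (n = 4). No contrast between groups was made and no p-value is given.

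Dorsal root ganglia hold the cell bodies of the sensory neurons that serve touch, limb position, temperature, itch and pain. Unmyelinated nociceptors fall into peptidergic cells, which release calcitonin gene-related peptide (CGRP) and substance P, and non-peptidergic cells, which depend on the receptor Ret and carry Mas-related receptors. Large myelinated neurons serve touch and proprioception. Each cell body is wrapped by satellite glia, and Schwann cells ensheath the axons. Levels of different genes are compared in TPM, the count of a gene divided by its exon length and scaled to the same total in every library. Levels of the same gene between libraries are given in TPM or in CPM, the count as a share of the library total without division by length, and ranks are among 22015 nuclear protein-coding genes. In whole ganglia, fewer cells of a type and less RNA per cell cannot be told apart.

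The control libraries held 19607740 to 27970469 counts, so 3 counts, the limit that a count of 0 allows, equalled 0.107 to 0.153 CPM (counting error only). Nuclear protein-coding genes took 95.5 ± 0.725% of the counts and the mitochondrial genome 2.87 ± 0.526%. At 1 CPM or more in every library stood 13313 protein-coding genes, or 60.5% of them, and 3823 had no count in any library. Of 12 general neuronal genes 11 had a mean above 100 TPM, while 11 of 13 central nervous system markers had a mean under 1 TPM. Of all nuclear protein-coding genes, 7.42% had a mean of 100 to under 1000 TPM and 0.391% a higher one. A further 19.4% had counts but a mean under 1 TPM, and 17.4% had no count. General neuronal genes alone do not tell ganglia from central tissue. Xist, transcribed from the inactive X chromosome, was at 59.9 and 75.7 TPM in control 2 and 4 and at 0.233 and 0.225 TPM in control 1 and 3. The Y-linked gene Ddx3y showed the reverse, at 47.02 and 30.7 TPM in control 1 and 3 against 0 and 0.108 TPM in control 2 and 4. The sex-linked genes therefore split the libraries into pairs. Over the 14262 nuclear protein-coding genes past the count filter, log2 CPM correlated between libraries with Pearson's r of 0.990 to 0.992, a description across genes.

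Protein-coding levels spanned a steep range. A mean of at least 1000 TPM was reached by 86 genes (0.391%), and 1634 (7.42%) lay from 100 to under 1000. From 10 to under 100 lay 7635 (34.7%), and from 1 to under 10 lay 4566 (20.7%). The 100 most abundant protein-coding genes of each library held 18.6 ± 0.231% of its protein-coding counts, mitochondrial genes included. Sncg, which encodes gamma-synuclein, a small protein of sensory axons, ranked first among nuclear genes. It stood at 10365, 11735, 9419.5 and 10222 TPM in control 1 to 4 (10435 ± 961), and its lowest library lay above the highest value of Tmsb4x, the next gene. Tmsb4x, the gene of the actin-binding peptide thymosin beta 4, was at 5826 ± 1071 TPM. Uchl1, a neuronal ubiquitin hydrolase gene, was at 5474 ± 412 TPM, and Tubb3, neuronal beta-tubulin, was at 5431 ± 755 TPM. The library ranges of these 3 overlapped, as did that of Apoe, the lipid carrier gene of satellite glia, at 5202 ± 548 TPM.

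Beside Tubb3, the leading 20 genes included the neurofilament genes Nefl (3747 ± 502 TPM), Nefh (2404 ± 297 TPM) and Nefm (2312 ± 280.2 TPM), and Prph, whose product peripherin is the intermediate filament of small sensory neurons, at 3279.8 ± 228 TPM. Nefl exceeded Nefh by 1.45 to 1.72 times within each library. Tppp3 (4037 ± 267 TPM), a tubulin polymerisation gene, and Stmn3 (3566 ± 323 TPM), a stathmin, also act on microtubules. The neuropeptide gene Calca, which encodes CGRP, ranked 6th at 4185 ± 795 TPM, above every receptor, peptide and channel gene of the lists examined. Pmp22, a myelin protein gene of Schwann cells, closed the group at 2155 ± 121 TPM. Also among the 20 were Hsp90ab1 (3454 ± 142 TPM), Calm2 (2595 ± 261 TPM), Aldoa (2553 ± 208 TPM), Anxa5 (2504 ± 132 TPM), Reep5 (2432 ± 106 TPM) and Ndrg4 (2249 ± 257 TPM). They encode a chaperone, calmodulin, a glycolytic enzyme, an annexin, a protein of the endoplasmic reticulum and a cytoplasmic protein of neurons. These ranks rest on exon-union lengths: with the longest transcript of each gene 17 of the 20 stayed in the group, and with the mean length of protein-coding transcripts 14 stayed. That last length moved 94 of 194 named genes by over 1.5-fold in TPM. The orders and overlaps of different genes given below therefore also rest on exon-union lengths.

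**Figure D1:**
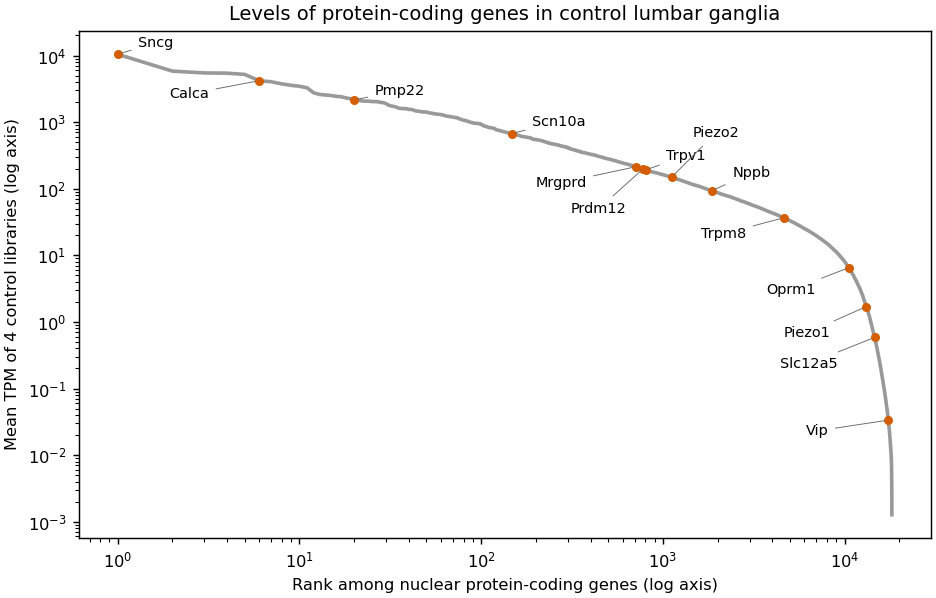
Mean TPM of the 4 control libraries (log axis) against rank among nuclear protein-coding genes (log axis), with named genes marked in orange on the grey curve. Levels fall from Sncg at 10435 TPM through Trpv1 at 192 TPM to Vip at 0.0335 TPM.

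The 60 bases before the start site of 5 abundant or class-defining neuronal genes are shown to set their letters beside their levels. They come from RefSeq on GRCm38.p6, 5′ to 3′, with capitals for the TATA box letters TATAAA, searched for on the gene's strand with the first base 20 to 40 bases before the start.
Sncg (chr14:34374670-34374729, minus): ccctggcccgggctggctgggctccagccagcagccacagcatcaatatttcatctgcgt
Uchl1 (chr5:66676061-66676120, plus): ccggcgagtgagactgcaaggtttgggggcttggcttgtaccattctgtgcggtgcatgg
Calca (chr7:114636358-114636417, minus): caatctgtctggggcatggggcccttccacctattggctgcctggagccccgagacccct
Prph (chr15:99055114-99055173, plus): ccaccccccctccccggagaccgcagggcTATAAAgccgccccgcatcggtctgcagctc
Nppb (chr4:147985840-147985899, plus): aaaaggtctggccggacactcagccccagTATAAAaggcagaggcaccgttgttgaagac
Prph at 3279.8 TPM and Nppb, a peptide gene of itch neurons, at 93.1 TPM hold the letters, each 31 bases before the start. Sncg, Uchl1 and Calca do not hold them in this window. The Sncg window and part of the Uchl1 window lie inside the gene bounds of GENCODE M21, which start further upstream. Letters before those starts were not searched for here. Of all 32851 promoter windows in that table, 1.99% hold them. Only 75.2% of protein-coding symbols have a window there, so shares by level leave out the rest. Of symbols with a window, 3.01% hold the letters in at least 1 of their windows. Among those at 1 TPM or more 1.61% hold the letters, and among those under 1 TPM 5.73%. Among the 100 most abundant, 68 have a window and 5.88% of these hold them. A relation of the letters to level was not tested.

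Peptidergic nociceptor genes summed to 5731 ± 958 TPM over 12 genes, most of it from Calca. Calca was at 5353 TPM in control 1 and at 3609.8 to 3996 TPM in the other libraries, so control 1 was high. Tac1, the substance P precursor gene, was at 534, 392, 514 and 405 TPM in control 1 to 4, or 0.0982 to 0.136 times Calca within libraries. Trpv1, the channel gene for heat and capsaicin, was at 217, 141, 202 and 209 TPM, with control 2 low. Control 2 was the lowest library by TPM for 45.1% of the 13700 protein-coding genes with a mean of at least 1 CPM. Adcyap1, a neuropeptide gene, at 127 ± 18.3 TPM and Gfra3, the artemin receptor gene, at 125 ± 27.9 TPM had overlapping ranges. Ptgir, the prostacyclin receptor gene, was at 87.9 ± 17.1 TPM, and the lowest of the 12 was Prokr2, a prokineticin receptor gene, at 7.94 ± 0.819 TPM. Of the 12 genes, 10 were highest in control 1, against 24.9% of all 13700 protein-coding genes with a mean of at least 1 CPM. With TPM scaled to nuclear protein-coding genes only, this was 9 of 12 against 19.7%.

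Genes of the Mrgprd class of non-peptidergic nociceptors summed to 2656 ± 299.7 TPM over 12 genes, with 8 above 100 TPM. Scn11a, which encodes the persistent sodium channel NaV1.9, led at 535 ± 73.9 TPM and overlapped Ret at 484 ± 77.6 TPM. With the mean length of protein-coding transcripts Scn11a was at 290 TPM, so its place depends on the length used. Cd55, a complement regulator gene, was at 383, 381, 377 and 373 TPM in control 1 to 4, a narrow range. P2rx3, the ATP-gated channel gene of this class, was at 387, 261, 333 and 377 TPM, with control 2 low. Mrgprd itself, the receptor gene that names the class, was at 205, 177, 203 and 268 TPM and ranked 708th, and its range overlapped that of the GDNF family receptor gene Gfra2 at 194 ± 35.8 TPM. Lpar3, for lysophosphatidic acid, was at 119 ± 17.2 TPM and Ptgdr, for prostaglandin D2, at 63.6 ± 7.47 TPM. Of these 12 genes, 9 were lowest in control 2, where 45.1% of the 13700 genes were lowest (9 against 39.8% with nuclear scaling).

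Itch-sensing neuron genes all had means below 100 TPM and summed to 469 ± 51.02 TPM. Most nuclear protein-coding genes also lay below 100 TPM, with 7.42% from 100 to under 1000 TPM and 0.391% higher. Nppb, the natriuretic peptide gene that marks a class of itch neurons, was at 85.5, 109.9, 67.5 and 109 TPM. Mrgpra3, the chloroquine receptor gene, was at 65.3 ± 8.58 TPM, and Mrgprx1, another Mas-related receptor gene, was at 59.9 ± 3.47 TPM. Counts of Mrgpr genes are uncertain because the family holds closely similar sequences. Nts, for neurotensin, was at 122 TPM in control 1 and at 38.6 to 45.3 TPM in the others. Sst, for somatostatin, ranged from 26.9 TPM in control 3 to 57.4 TPM in control 4. The cytokine receptor genes Il31ra and Osmr, which form the interleukin 31 receptor, were at 23.2 ± 5.77 and 21.3 ± 2.13 TPM with overlapping ranges. The histamine receptor gene Hrh1 was the lowest at 3.68 ± 0.553 TPM.

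Markers of C-fibre low-threshold mechanoreceptors (C-LTMR), which respond to gentle touch, and of cold-sensing neurons summed to 421 ± 54.8 TPM over 8 genes. Th, the tyrosine hydroxylase gene that marks C-LTMR, made up most of it at 203, 204, 258 and 274 TPM. Control 3 and 4 lay above control 1 and 2 for Th. The purinergic receptor gene P2ry1 was at 62.4 ± 9.700 TPM. Trpm8, the cold-activated channel gene, was at 36.6 ± 7.22 TPM, and its range overlapped that of the secreted protein gene Fam19a4 at 34.05 ± 1.51 TPM. The vesicular glutamate transporter gene Slc17a8 was at 15.1 ± 3.23 TPM, and Foxp2, a transcription factor gene, was lowest at 1.15 ± 0.345 TPM.

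A-fibre and proprioceptor genes summed to 4009 ± 400.3 TPM over 15 genes, of which Nefh was the largest part at 2617, 2229.8, 2692 and 2078 TPM. Ldhb, a lactate dehydrogenase gene, was at 543 ± 58.7 TPM. Spp1, for osteopontin, was at 317, 356, 405 and 229 TPM, with control 4 low. Its range overlapped that of Pvalb, the parvalbumin gene of proprioceptors, at 261, 346, 304 and 264 TPM. Cntnap2, a juxtaparanodal adhesion gene, was at 105 ± 10.4 TPM. The neurotrophin receptor genes Ntrk3 and Ntrk2 were at 45.3 ± 8.58 and 43.02 ± 4.67 TPM with overlapping ranges, and Runx3, a transcription factor gene of proprioceptors, was lowest at 6.303 ± 1.69 TPM.

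**Figure D2:**
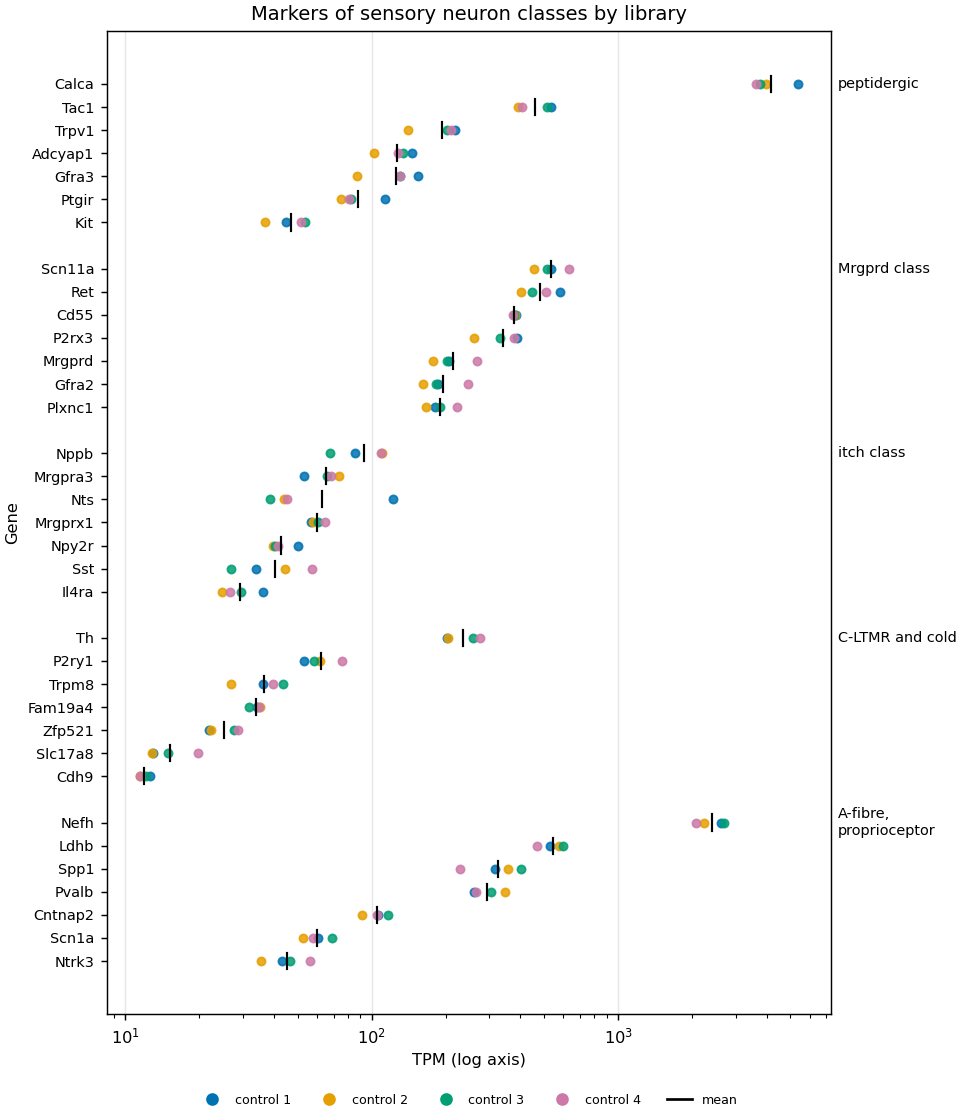
TPM (log axis) of abundant markers of each sensory neuron class, with a coloured point per control library and a black bar for the mean. Calca at 4185 TPM and Nefh at 2404 TPM lie above the other markers, and Nts in control 1 at 122 TPM lies away from the other libraries.

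Among sodium channel genes the tetrodotoxin-resistant pore subunits of nociceptors led. Scn10a (NaV1.8) was at 800.5, 541, 623 and 728 TPM in control 1 to 4, and its range overlapped that of Scn11a. The accessory subunit gene Scn4b was at 334 ± 36.1 TPM. Scn9a (NaV1.7) was at 169, 136, 161 and 173 TPM, so Scn10a exceeded it 3.88 to 4.74 times within each library. Scn8a at 64.7 ± 9.18 TPM and Scn1a at 59.9 ± 7.005 TPM, subunits of myelinated neurons, overlapped. Scn3a, prominent in the embryo, was lowest of the 13 genes at 2.46 ± 0.529 TPM. The summed level of the list was 2108 TPM in control 2 and 2512 to 2591 TPM in the others. Of the 13 genes, 9 were lowest in control 2 with either TPM scaling, against 45.1% of all genes at 1 CPM (39.8%).

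Of 29 potassium channel genes, all were at 1 TPM or more in every library and 6 had a mean above 100 TPM. The auxiliary subunit gene Kcnab2 led at 597 ± 57.1 TPM. The A-type channel gene Kcnd1 was at 260.1 ± 31.8 TPM. Kcna2 at 165 ± 21.4 TPM, the sodium-activated channel gene Kcnt1 at 156 ± 14.5 TPM and Kcna1 at 156 ± 30.9 TPM overlapped one another. Kcnk18, the background channel TRESK, was at 11.8 ± 1.605 TPM and Kcnd2 was lowest at 1.94 ± 0.881 TPM. Of the 29 genes, 25 were lowest in control 2 (23 with nuclear scaling), against 45.1% of all genes at 1 CPM (39.8%). Their sum was 2097 TPM there against 2580.1 to 2610.2 TPM elsewhere.

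Of the calcium channel genes, the beta subunit gene Cacnb3 led at 231 ± 25.8 TPM. The N-type pore gene Cacna1b, which carries transmitter release at nociceptor terminals, was at 91.3 ± 14.7 TPM and overlapped Cacna2d1, the gabapentin-binding subunit gene, at 89.02 ± 13.2 TPM. Cacna2d1 exceeded Cacna2d2 2.72 to 3.402 times within libraries. The T-type gene Cacna1h was at 28.9 ± 5.58 TPM and the L-type gene Cacna1c at 22.3 ± 3.65 TPM. Another T-type gene, Cacna1g, was lowest at 0.803 ± 0.3700 TPM.

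Piezo2, the touch channel gene, was at 157, 116, 163 and 161 TPM in control 1 to 4, with control 2 low. By TPM, 45.1% of all genes at 1 CPM were lowest in control 2. Piezo1, its relative of vessels and blood cells, was at 1.699 ± 0.452 TPM, so Piezo2 was 72.1 to 123 times higher per length within libraries. Trpa1, the irritant receptor gene, was at 112, 71.4, 73.7 and 87.4 TPM, with control 1 highest, and Trpv1 exceeded it 1.93 to 2.74 times. Trpv1 exceeded Trpm8 4.61 to 6.01 times. Trpv2 was at 78.6 ± 7.26 TPM, and the heat-responsive channel gene Trpm3 was at 11.6 ± 1.38 TPM.

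The acid-sensing subunit gene Asic3 was at 289 ± 40.7 TPM and overlapped P2rx3. Asic2 was at 93.5 ± 9.17 TPM and Asic1 at 51.05 ± 4.36 TPM, and Asic4 had 0.241 ± 0.174 TPM with no count in control 2. P2rx2, which pairs with P2rx3, was at 8.72 ± 1.299 TPM, so P2rx3 was 36.5 to 41.6 times higher. The pacemaker channel gene Hcn2 was at 66.9, 70.96, 85.5 and 124 TPM, with control 4 high.

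**Figure D3:**
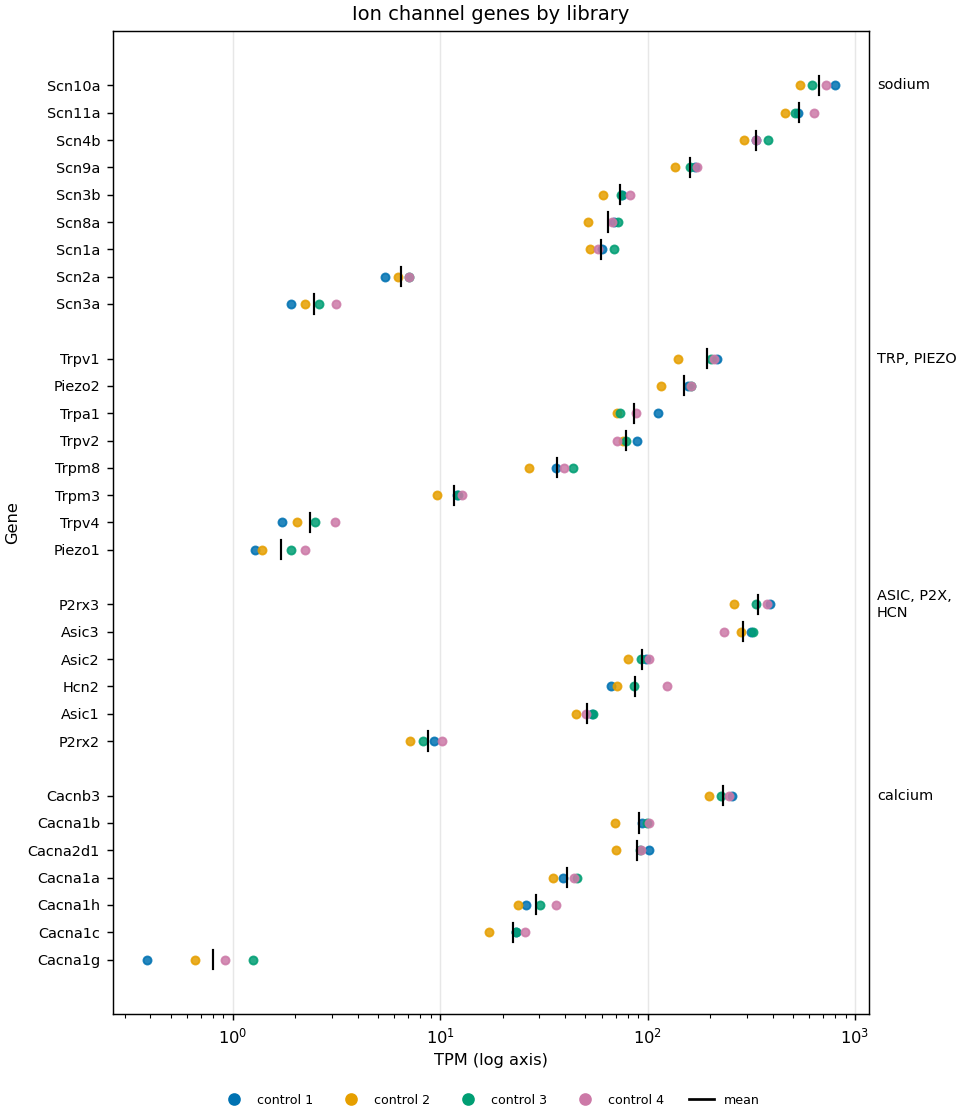
TPM (log axis) of sodium, TRP and PIEZO, acid-sensing, ATP-gated, pacemaker and calcium channel genes, with a coloured point per control library and a black bar for the mean. Scn10a and Scn11a lead, Piezo2 at 149 TPM lies far above Piezo1 at 1.699 TPM, and control 2 is the lowest library for Scn9a, Trpv1, Piezo2 and P2rx3. By TPM, control 2 is also the lowest library for 45.1% of all genes at 1 CPM.

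Ion transport genes also differed widely. The sodium pump regulator genes Fxyd7 and Fxyd2 were at 1372 ± 191 and 715 ± 115 TPM. With the mean length of protein-coding transcripts Fxyd7 was at 776 TPM and Fxyd2 at 2460 TPM, so their order depends on the length used. The chloride importer gene Slc12a2 was at 59.9 ± 2.24 TPM. Slc12a5, the chloride exporter gene of central neurons, was at 0.585 ± 0.221 TPM, which put Slc12a2 at 69.97 to 158 times its level.

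Among growth factor receptor genes, Ngfr, the low-affinity neurotrophin receptor, led at 1316, 682, 895 and 891 TPM in control 1 to 4, with control 1 high and control 2 low. Gfra1, the receptor subunit gene for GDNF, was at 106 ± 14.8 TPM and overlapped Gfra3. Met, the hepatocyte growth factor receptor gene, was lowest of the 13 at 1.03 ± 0.214 TPM.

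Receptor genes for glutamate and GABA were led by metabotropic GABA-B subunits and a kainate subunit. Gabbr1 at 229 ± 32.4 TPM and Grik1 at 224 ± 13.4 TPM overlapped, and Gabbr2 was at 131 ± 17.8 TPM. Gria4 at 56.9 ± 9.11 TPM was the highest AMPA subunit gene. The NMDA subunit gene Grin1 was at 41.95 ± 5.75 TPM. Its partner subunit genes of the brain were near 0, with Grin2a at 0.0727 ± 0.0278 TPM and Grin2b at 0.0277 ± 0.0231 TPM (0.0169 TPM without control 4), while Grin2d was at 2.79 ± 0.374 TPM. The serotonin-gated channel gene Htr3a was at 263 ± 36.8 TPM. Of the nicotinic subunit genes Chrna6 led at 119 ± 19.7 TPM, followed by Chrnb2 at 56.8 ± 6.78 TPM and Chrna7 at 52.2 ± 13.7 TPM with overlapping ranges.

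Of 30 G protein-coupled receptor and related genes for peptides, amines and nucleotides, 0 reached 100 TPM and 7 had a mean under 1 TPM. Of all nuclear protein-coding genes, 7.42% lay from 100 to under 1000 TPM and 0.391% higher. Under 1 TPM lay 19.4% with counts, besides 17.4% with no count. P2ry1 and the triptan target gene Htr1d at 57.96 ± 6.52 TPM overlapped at the head of that list, followed by the neuropeptide Y receptor gene Npy2r at 43.00 ± 4.83 TPM. Tacr1, the substance P receptor gene, was at 0.147 ± 0.0917 TPM, far below its ligand gene Tac1. The cannabinoid receptor gene Cnr1 was at 30.5 ± 4.703 TPM. Of the opioid receptor genes, the nociceptin receptor gene Oprl1 was at 26.5 ± 3.89 TPM, delta (Oprd1) at 16.7 ± 2.08, mu (Oprm1) at 6.53 ± 2.15 and kappa (Oprk1) at 1.798 ± 0.205 TPM. The ranges of Cnr1 and Oprl1 overlapped, and those of Oprl1 and Oprd1 did not.

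Among receptor genes for inflammatory signals, the shared cytokine subunit gene Il6st at 235 ± 38.97 TPM and the thrombin receptor family gene F2rl2 at 204 ± 13.3 TPM overlapped. With the mean length of protein-coding transcripts their means were 495 and 109 TPM. S1pr3, for sphingosine 1-phosphate, was at 163 ± 31.6 TPM. The trypsin receptor gene F2rl1 was at 0.702 ± 0.688 TPM (0.363 TPM without control 1), and the inducible bradykinin receptor gene Bdkrb1 was at 0.0736 ± 0.0942 TPM (0.0324 TPM without control 2).

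Neuropeptide genes ranged from Calca to Vip. After Calca came Nmb, for neuromedin B, at 648, 669, 597 and 578 TPM. Calcb, the other CGRP gene, was at 505, 481, 466 and 442 TPM, and Calca exceeded it 8.104 to 10.6 times within libraries. Gal, for galanin, was at 244 TPM in control 1 and 85.1 to 115 TPM in the others. Npy, a peptide gene known to appear in large neurons after nerve injury, was at 28.3 TPM in control 1 and 1.25 to 4.94 TPM in the others, so its mean of 9.797 TPM became 3.62 TPM without control 1. Penk, for enkephalins, was at 14.8 ± 5.59 TPM. Vip had 0.0335 ± 0.0399 TPM (0.0183 TPM without control 1) and Pdyn, for dynorphins, 0.5103 ± 0.349 TPM (0.336 TPM without control 4). Of 22 genes in the list, 12 were highest in control 1 with either TPM scaling, against 24.9% of all genes at 1 CPM (19.7% with nuclear scaling).

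Of 32 sensory neuron transcription factor genes, 9 had a mean above 100 TPM. The LIM homeobox gene Isl2 led at 321, 319, 364 and 332 TPM and stood above Isl1 at 122 ± 11.4 TPM in every library (Isl1 at 0.328 to 0.382 times Isl2). Cbfb, for the partner subunit of RUNX factors, was at 302 ± 17.9 TPM. Prdm12, a PR domain regulator of nociceptors, was at 190.3, 180.4, 179.7 and 238 TPM in control 1 to 4 and ranked 776th. The homeobox genes Prrxl1, Tlx2 and Tlx3 were at 155 ± 11.5, 139.6 ± 6.502 and 135 ± 5.64 TPM, and Pou4f1 (Brn3a) was at 125 ± 11.7 TPM. Runx1, a factor of non-peptidergic nociceptors, exceeded Runx3 by 4.88 to 6.41 times per length. The proneural genes of the embryo were low, with Neurog1 at 0.805 ± 0.489 and Neurog2 at 0.193 ± 0.152 TPM.

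Hox genes record position along the body axis. Of 39 Hox genes, 27 were at 1 TPM or more in every library, and Hoxa13, Hoxc12, Hoxc13 and Hoxd13 had no count. Of all nuclear protein-coding genes, 60.5% were at 1 CPM or more in every library, a threshold in another unit, and 17.4% had no count. Hoxd1, a nociceptor gene in mice, led at 42.6 ± 3.72 TPM, followed by Hoxa10 at 24.6, 46.02, 45.4 and 40.7 TPM, with overlapping ranges. Hoxc10 was at 5.01, 11.4, 12.6 and 13.00 TPM, with control 1 low. Hoxd10 was at 0.964, 5.53, 0.844 and 6.57 TPM, so control 2 and 4 lay above control 1 and 3 for this gene, which was singled out after its values were seen. Hoxd11 was at 0.501 ± 0.685 TPM (0.166 TPM without control 4). Of the 35 Hox genes with counts, 26 were scored lowest in control 1 (27 with nuclear scaling), against 19.1% of all genes at 1 CPM (25.7%). A tie at 0 was scored to the first tied library, so these counts include genes at 0 in control 1 and in other libraries. The share covers only genes with a mean of at least 1 CPM, so it is not a like-for-like comparison.

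Satellite glia markers summed to 7634 ± 846 TPM over 14 genes, most of it from Apoe. Fabp7, a fatty acid binding protein gene of satellite glia, was at 622, 1651, 940.1 and 883 TPM, with control 2 high and control 1 low. Glul, for glutamine synthetase, was at 289 ± 26.1 TPM and the potassium channel gene Kcnj10 at 39.6 ± 4.803 TPM. The glial transcription factor gene Sox10 was at 59.6 ± 3.895 TPM, and Slc1a3, a glutamate transporter gene, was lowest at 7.35 ± 1.02 TPM. Of the 14 markers, 8 were lowest in control 2 (7 with nuclear scaling), where 45.1% of all genes at 1 CPM were lowest (39.8%), so the markers lay near that share.

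Myelin genes of Schwann cells summed to 4289.5 ± 286 TPM. Besides Pmp22, the myelin basic protein gene Mbp was at 307, 379, 392 and 319 TPM. Mal, a myelin membrane gene, was at 154 ± 8.95 TPM and the periaxin gene Prx at 89.6 ± 16.2 TPM. The myelin transcription factor gene Egr2 was at 10.6 ± 3.15 TPM and Gjb1, for connexin 32, was lowest at 8.797 ± 1.41 TPM. Of the 14 genes, 12 were highest in control 3, and 8 with nuclear scaling, where 39.6% and 26.9% of all genes at 1 CPM were highest in that library. S100b, shared by glia and large neurons, was at 1687 ± 195 TPM and Scn7a, of non-myelinating Schwann cells, at 351 ± 15.4 TPM. Gfap, an intermediate filament gene of glia, was at 25.5 TPM in control 4 and 0.369 to 1.28 TPM in the others (0.934 TPM without control 4).

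Fibroblast and meningeal markers summed to 1821 TPM in control 1 and to 3185 to 3796 TPM in the other libraries. All 14 markers were lowest in control 1 with either TPM scaling, where 19.1% of all genes at 1 CPM were lowest (25.7% with nuclear scaling). Apod, for apolipoprotein D, was at 1273, 2735, 2186 and 1964 TPM. The matrix proteoglycan gene Dcn was at 246, 521, 517 and 522 TPM, and the collagen gene Col1a1 at 21.1, 50.5, 73.8 and 49.7 TPM. For each, control 1 lay below the other libraries. Ptgds, a prostaglandin synthase gene abundant in meninges, was at 206 TPM in control 4 and 60.03 to 76.9 TPM in the others (67.6 TPM without control 4).

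Macrophage markers summed to 549.8, 868, 1021 and 774 TPM in control 1 to 4, and all 14 were lowest in control 1 with either TPM scaling, again against 19.1% of all genes at 1 CPM (25.7% with nuclear scaling). Lyz2, for lysozyme, was at 165, 234, 266 and 200.1 TPM, and the complement gene C1qa was at 56.5, 102, 117 and 87.9 TPM. Adgre1, which encodes the macrophage antigen F4/80, was at 49.6 TPM in control 3 and 6.61 to 10.7 TPM in the others (9.25 TPM without control 3). Aif1, for the calcium-binding protein Iba1, was at 26.8 TPM in control 3 and 6.77 to 8.59 TPM in the others (7.63 TPM without control 3). The T cell gene Cd3e was low at 0.364 ± 0.0954 TPM. Endothelial and mural markers summed to 544 ± 29.9 TPM, led by Mcam at 263 ± 26.3 TPM and the pericyte gene Rgs5 at 173 ± 18.5 TPM. The endothelial genes Cdh5 and Pecam1 were at 10.96 ± 2.17 and 8.14 ± 1.41 TPM.

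Markers of neighbouring tissue were low in most libraries. Aqp4, the astrocyte water channel gene, was at 19.9 TPM in control 4 and 6.69 to 7.897 TPM in the others. The oligodendrocyte gene Mobp was at 1.798 TPM in control 4 and 0.102 to 0.207 TPM in the others (0.142 TPM without control 4), and the oligodendrocyte lineage gene Olig1 was at 0.863 TPM in control 4 and 0 to 0.0645 TPM elsewhere (0.0423 TPM without control 4). Of the 13 central markers, 11 were highest in control 4 (11 with nuclear scaling), against 21.1% of all genes at 1 CPM (32.8%). The skeletal muscle gene Acta1 was at 38.1 TPM in control 2 and 9.44 to 14.8 TPM in the others (11.6 TPM without control 2), and Tnnt3 was at 26.4 TPM in control 2 and 0.943 to 7.402 TPM in the others (3.104 TPM without control 2). The haemoglobin gene Hbb-bs was at 29.1, 37.6, 78.2 and 84.04 TPM, and globin copies are near-identical, so their split is uncertain. The part of attached tissue in any level above was not tested.

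The spread between libraries was small for most genes. The median SD of log2 CPM was 0.139 over 14262 nuclear protein-coding genes past the count filter, and the common biological coefficient of variation from edgeR was 0.124 over 16114 genes. The median SD was 0.293 for genes at 1 to 3 CPM, 0.134 at 10 to 30 CPM and 0.104 at 100 to 300 CPM. Of 7851 of these genes with a mean of at least 20 CPM, 38 had an SD above 0.5. The steadiest were Nelfb, a subunit gene of negative elongation factor, at 79.5 to 79.8 CPM and Xpnpep3, an aminopeptidase gene, at 21.7 to 21.8 CPM. Among abundant steady genes were Ttll7, a tubulin modifying enzyme gene, at 1446 to 1462 CPM and the kinase gene Mapk3 (ERK1) at 981 to 993 CPM. These are extremes of SDs from 4 libraries each and were picked for that.

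The most variable genes at 20 CPM or more, with no count filter, included Ddx3y, described above, which did not pass that filter, and Esr1, the oestrogen receptor alpha gene, at 13.98, 15.5, 37.9 and 48.6 CPM. Esr1 was low in control 1 and 2 and high in control 3 and 4. Lypd1, a nicotinic receptor modulator gene, was at 40.6 CPM in control 4 and 11.1 to 16.5 CPM in the others. Egr1, an immediate early gene, was at 47.5 CPM in control 3 and 15.6 to 19.9 CPM in the others. Tgfbi, a matrix protein gene, was at 39.6 CPM in control 1 and 87.5 to 116 CPM in the others. Each of these 3 genes thus had its extreme value in a different library. Of the 3, only Egr1 passed the critical ratio for a library apart that is set out under the flagged results. Lars2, a mitochondrial leucyl-tRNA synthetase gene, was at 392 CPM in control 3 and 830.3 to 1196 CPM in the others.

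**Figure D4:**
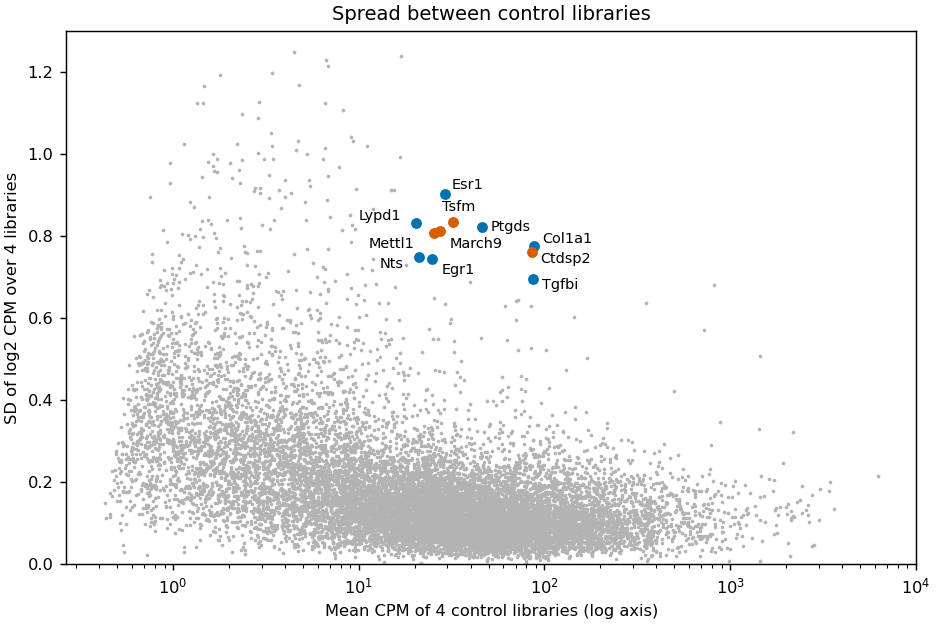
SD of log2 CPM over the 4 control libraries against mean CPM (log axis) for nuclear protein-coding genes past the count filter, each a grey point, with 17 genes above the axis limit of 1.3 not drawn. Coloured points are the most variable genes at 20 CPM or more, in orange Tsfm, Mettl1, March9 and Ctdsp2 of chromosome 10, and those drawn lie from 0.696 (Tgfbi) to 0.903 (Esr1).

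Among these variable genes, Tsfm, Mettl1, March9 and Ctdsp2 are neighbours on chromosome 10. Tsfm, a mitochondrial translation elongation factor gene (chr10:127011572-127030840, minus strand of mm10), was at 16.3, 18.2, 48.5 and 45.3 CPM in control 1 to 4. Mettl1, a tRNA methyltransferase gene (chr10:127041414-127046365), was at 14.7, 13.3, 34.9 and 38.8 CPM. For March9, a ubiquitin ligase gene (chr10:127055011-127060184), the levels were 14.7, 15.3, 38.6 and 41.1 CPM. For each of the 3, control 3 and 4 lay over 2-fold above control 1 and 2. Ctdsp2, a phosphatase gene (chr10:126978717-126999975), showed the same order at 48.2, 49.3, 116 and 127 CPM. The 12 protein-coding genes at 1 CPM or more within 150 kb of Tsfm were then examined, after this was seen. For 8 of the 12, control 3 and 4 lay above control 1 and 2. These 8 include Tsfm, Mettl1, March9 and Ctdsp2, which prompted the look, and the share of all genes in this order was not counted. Besides those named, Tspan31, a tetraspanin gene, was at 54.1, 54.2, 118 and 113 CPM. The cell cycle kinase gene Cdk4, which overlaps Tspan31 on the opposite strand, was at 42.1, 46.8, 100.3 and 90.3 CPM. Since no label or header names the counting strand, reads of overlapping genes cannot be told apart. Atp23, a mitochondrial protease gene, was at 6.15, 7.04, 14.02 and 15.8 CPM. The smallest relative difference was that of Agap2, a GTPase activating protein gene, at 22.6, 24.4, 29.8 and 33.5 CPM.

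The gene between Ctdsp2 and Tsfm did not share that pattern. Avil, the sensory neuron actin regulator gene whose 3′ end overlaps Tsfm on the opposite strand (chr10:127000709-127020994), was at 1136, 995, 1062 and 980.0 CPM, with no gap between the pairs of libraries. Os9, next to Agap2, was at 141, 132, 133 and 129.6 CPM. Of 7852 nuclear protein-coding genes with a mean of at least 20 CPM, with Ddx3y added to the 7851 above because no count filter was set, 6 had both control 3 and 4 over 2-fold above both control 1 and 2. All 6 lie on chromosome 10, of which 5 are in this stretch and the other is Esr1. The share of the 7852 genes on chromosome 10 was not counted, and the same count was not made for other pairs of libraries. The order was set after Tsfm, Mettl1, March9, Ctdsp2 and Esr1 were seen, so finding these genes again restates that choice. This split of the libraries differs from that of Xist and Ddx3y, which set control 1 and 3 against control 2 and 4.

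Control 1 differed from the others in nerve injury genes. Atf3, a transcription factor gene induced in injured sensory neurons, was at 74.8, 9.85, 19.2 and 10.4 TPM in control 1 to 4 (13.1 TPM without control 1). Sprr1a, a growth-associated gene of injured axons, was at 114, 1.58, 8.13 and 1.39 TPM (3.698 TPM without control 1). Ecel1, a peptidase gene induced by injury, was at 10.97, 0.525, 1.59 and 1.599 TPM (1.24 TPM without control 1). Control 1 lay above the other libraries for each of these, and also for Jun at 115 TPM against 60.5 to 74.3 TPM. Gadd45a, Sox11, Flrt3 and Csf1 completed the injury genes of the list, and all 8 were highest in control 1 with either TPM scaling, against 24.9% of all genes at 1 CPM (19.7% with nuclear scaling). For Csf1, the macrophage growth factor gene, the margin was small, at 15.5 TPM against 14.1 TPM in control 3. Of the 8 activity genes, 7 were highest in control 3 with either TPM scaling, against 39.6% of all genes at 1 CPM (26.9% with nuclear scaling). Among them were Egr1 and Fos, the latter at 15.6, 9.08, 23.8 and 11.3 TPM, while Arc was highest in control 2. The low fibroblast and macrophage sums of control 1, and its high Gal, Npy and Nts, stand beside these values, and their part in them was not tested.

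**Figure D5:**
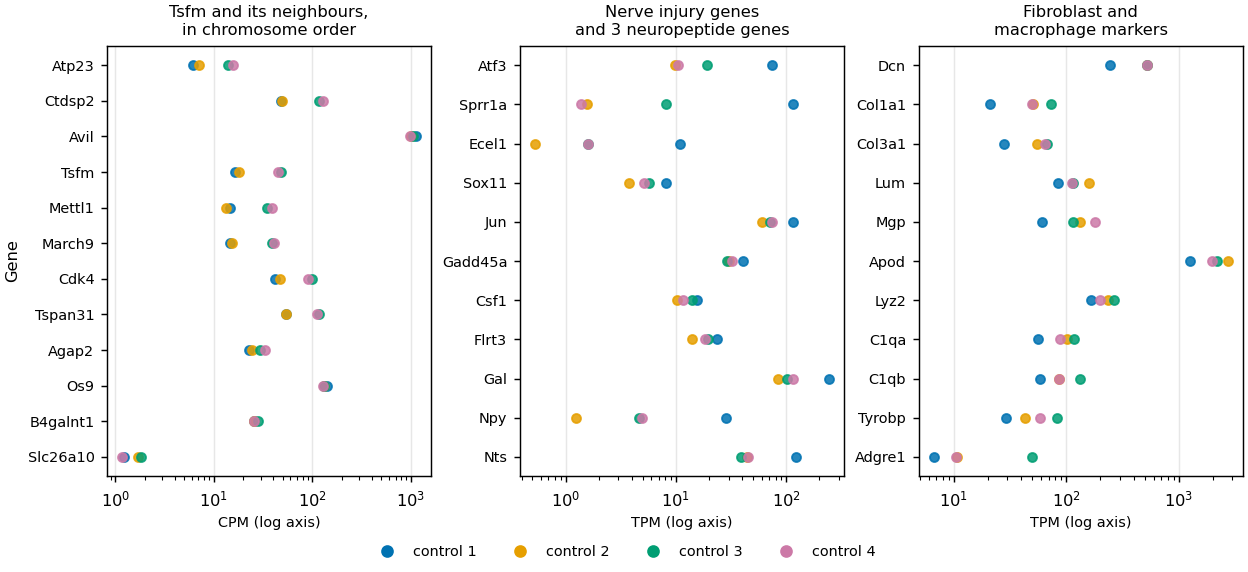
Level in each control library (coloured points, log axes) of Tsfm and its chromosome 10 neighbours in CPM, of nerve injury and neuropeptide genes in TPM and of fibroblast and macrophage markers in TPM. Control 3 and 4 separate from control 1 and 2 from Atp23 to Tspan31 except at Avil, and control 1 is the highest library for Atf3 (74.8 TPM) and the lowest for Dcn (246 TPM).

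The mitochondrial genome was counted unevenly. Its protein genes mt-Cytb and mt-Co1, of respiratory complexes III and IV, were at 21763 ± 3239 and 19985 ± 2433 TPM, above every nuclear protein-coding gene. The protein genes mt-Co2, mt-Co3, mt-Atp6, mt-Atp8 and mt-Nd4l are listed at 0 in all 4 libraries, although every cell uses them, so these zeros are no measure of their level. The summed level of the 13 genes was 68695, 91326, 75258 and 91785 TPM in control 1 to 4. A larger mitochondrial sum lowers the TPM of all other genes by construction, and for that reason the counts of highest and lowest libraries are also given with TPM scaled to nuclear protein-coding genes.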

How the data were processed

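RNA-seq of 4 control libraries was used; the other 5 libraries were left out because no contrast was made. The values are whole-number read counts per Ensembl gene, deposited by the authors without normalisation. Per the submitters' processing notes, the tools named include featureCounts 1.5.0-p1 and the aligner STAR 2.5.2a, besides bcl2fastq 2.20.0.422, and the build is mm10. Annotation release, strand and multi-mapping settings: not given in the sources used here. All 55536 identifiers matched GENCODE M21 (GRCm38), which gave symbols, positions and exon-union lengths.

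CPM scales each count by the total of its library, and TPM also divides by length. edgeR 4.0.16 in R 4.3.3 gave the filter (filterByExpr, a minimum count of 10 and a total of 15), TMM scaling and the biological coefficient of variation with an intercept alone. The SD of log2 CPM used a prior count of 2. The spread estimate was tested on simulated data. Tables and figures were made in Python 3.11.15 with pandas 2.3.3 and matplotlib 3.10.9.

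Named genes were the 20 with the highest mean TPM, the 5 highest and the defining low members of each of 34 lists (497 genes, all matched), the 12 most and 12 least variable at 20 CPM or more, the 3 highest and 3 lowest in each library relative to the others, and Prdm12. Further list members are named for contrast, and the chromosome 10 neighbours and Hoxd10 were chosen after their values were seen. The members and lists were chosen with earlier results of these data known. Alternatives were other scalings, lengths, thresholds and prior counts, and leaving out each library. Others were chosen after seeing the data, the nuclear TPM total for counts of highest and lowest libraries and means without the library that moved them. Some members of these lists are counted in the sums and counts but are not reported here by name.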

Additional observations from a re-analysis of the deposited data

Results flagged for a closer look

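Each reported value was checked for a library whose gap to its nearest neighbour, divided by the range of the 4 libraries, exceeded Dixon's 95% critical ratio for 4 samples. Of 303 values tested 26 exceeded it, and chance alone flags about 1 in 20. Some of these values, such as those of Nts, Egr1 and Ptgds, belong to genes named because 1 library stood apart, so the ratio restates that choice and 1 in 20 is not their chance rate. What lies behind these gaps was not tested.

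Control 1 was apart and high for the summed peptidergic genes at 7153 TPM, and for Nts at 122.5 TPM, Npy at 28.32 TPM, Sprr1a at 114.5 TPM, Atf3 at 74.78 TPM and Ecel1 at 10.97 TPM. It was apart and low for Dcn at 245.6 TPM. Control 2 was apart and low for the summed sodium channel genes at 2108 TPM and potassium channel genes at 2097 TPM. It was also low for Kcnab2 at 512.0 TPM, Piezo2 at 116.0 TPM, Prrxl1 at 137.8 TPM and the axonal adhesion gene L1cam at 325.0 TPM, against 438.2 to 451.7 TPM for L1cam in the others. By TPM, 45.1% of all genes at 1 CPM were lowest in control 2 (39.8% with nuclear scaling). Ttll7, steady in CPM, was at 609 TPM there and 647 to 666 TPM in the others.

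Control 3 was apart and high for Egr1 at 40.34 TPM, Adgre1 at 49.62 TPM and Aif1 at 26.84 TPM. Control 4 was apart and high for the summed central nervous system markers at 33.31 TPM, and for Gfap at 25.52 TPM, Aqp4 at 19.87 TPM, Mobp at 1.798 TPM, Olig1 at 0.8628 TPM, Ptgds at 206.0 TPM, Kcnd2 at 3.259 TPM and Pdyn at 1.034 TPM. It was apart and low for Uchl1 at 4861 TPM and for the number of genes with a count, 26050, and it also had the fewest counts.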

How the results depend on the processing

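The number of protein-coding genes detected in all control libraries ranged from 12447 (2 CPM) to 14021 (0.5 CPM) over the thresholds and scalings tried, and from 13351 to 13417 with 1 library left out. The common biological coefficient of variation ranged from 0.119 to 0.127 with 1 library left out and was 0.141 without the filter on low counts. The share held by the 100 most abundant genes was 16.9% when only nuclear protein-coding genes entered. With the mean length of protein-coding transcripts, 6 of 15 cell type lists kept their place in the order of summed TPM, so the order of lists depends on the length used. Scaling TPM to nuclear protein-coding genes raised the named genes by a median of 1.17-fold and kept all 20 leading genes. No paired analysis was possible because only the control group is described and no groups are compared. At this depth a gene with no count may lie at up to 0.153 CPM.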
